A study of Mus musculus with 10 samples.

Results

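The genes described here encode the receptor through which B cell precursors receive interleukin 7 (IL-7) and the proteins that carry its signal: the receptor chains Il7r, Il2rg and Crlf2, the Janus kinases Jak1 and Jak3, the transcription factors Stat5a and Stat5b, and the phosphatases Ptpn6 and Ptpn11. Members were found by symbol in the annotation of the array platform, taking probe sets that carry 1 gene symbol and, where a symbol has several, the brightest on average. By that rule 7 of the 9 genes had a value, out of 19938 symbols on the array, and each of the 7 had a single probe set. Il2rg had no probe set under its symbol in that annotation, and the only probe set listed for Jak3 also carries a second gene symbol, so neither gene was analysed here. All 7 passed the filter on dim rows, which left 14953 genes for testing.

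IL-7 binds a receptor made of the alpha chain encoded by Il7r and the common gamma chain encoded by Il2rg. JAK1 sits on the alpha chain and JAK3 on the gamma chain, and their activation leads to phosphorylation of STAT5, which enters the nucleus and drives genes of survival and growth in pro-B and large pre-B cells. The alpha chain also pairs with the Crlf2 product to form the receptor of thymic stromal lymphopoietin (TSLP), while SHP-1, from Ptpn6, is known mainly as a brake on such signals and SHP-2, from Ptpn11, mainly as a positive element of growth factor signalling.

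RNA came from B220+ cells sorted out of pre-B colonies, which are clones of B cell precursors grown from bone marrow in methylcellulose for 7 days. Marrow of 5 Hspa9+/+ mice (wild type littermates) and 5 Hspa9+/- mice (heterozygous, with 1 disrupted allele of the gene for the mitochondrial chaperone mortalin) was cultured mouse by mouse, and each RNA was hybridised to its own array. The labels give no strain, age or sex and do not say how the allele was disrupted. Values are RMA expression on the log2 scale, so a difference of 1 is a doubling, and every difference below is heterozygous minus wild type with n = 5 arrays per genotype. The comparison asks whether losing 1 copy of Hspa9 alters the RNA of these signalling components in B cell precursors.

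The targeted gene had a mean of 9.92 ± 0.378 (SD) in wild type and 9.18 ± 0.244 in heterozygous arrays. It differed by -0.73 (SE 0.185), which missed the threshold among all genes (limma adjusted p = 0.345), while the exact two-sided permutation test of that single value gave p = 0.0159. Heterozygous 1, at 9.52, lay above wild type 1, at 9.49, so the genotypes overlapped for it. B lineage markers were high in all arrays, with list means from 10.6 to 10.7 in wild type and 10.1 to 10.6 in heterozygous arrays. Of the 11 measured, 8 had a lower heterozygous mean, where 61.3% of all genes had a higher one. The mean of 13 monocyte and macrophage markers ran from 5.56 to 8.89 in wild type and from 6.83 to 9.50 in heterozygous arrays, with wild type 1 and heterozygous 2 highest. All 13 had a higher heterozygous mean, as had all 11 neutrophil lineage markers. At an unadjusted p under 0.05, 0 of these 13 and 0 of these 11 were higher. The mean of 7 plasmacytoid dendritic cell markers ran from 6.70 to 7.77 in wild type and from 7.48 to 8.74 in heterozygous arrays. These cells carry B220 themselves. At an unadjusted p under 0.05, 5 of the 7 plasmacytoid dendritic cell markers were higher, beside 6.79% of all genes, while 1 of the 7 had a lower heterozygous mean. None of the 7 passed the limma test after adjustment over all genes. These are mixed samples of RNA, in which fewer cells of a type and less RNA per cell cannot be told apart.

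None of the 7 measured members passed the limma test after Benjamini-Hochberg adjustment over all 14953 genes. Over the table as a whole the percentage of genes called was also 0. At an unadjusted p under 0.05 the members also gave 0 of 7, against 11.0% of all genes. The genotypes overlapped for all 7, whereas they did not overlap for 2.28% of all genes. In means, 3 members were higher in heterozygous cells and 4 were lower, with a median difference of -0.15 beside 0.06 over all genes. Heterozygous means exceeded wild type means for 61.3% of all genes.

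**Figure D1:**
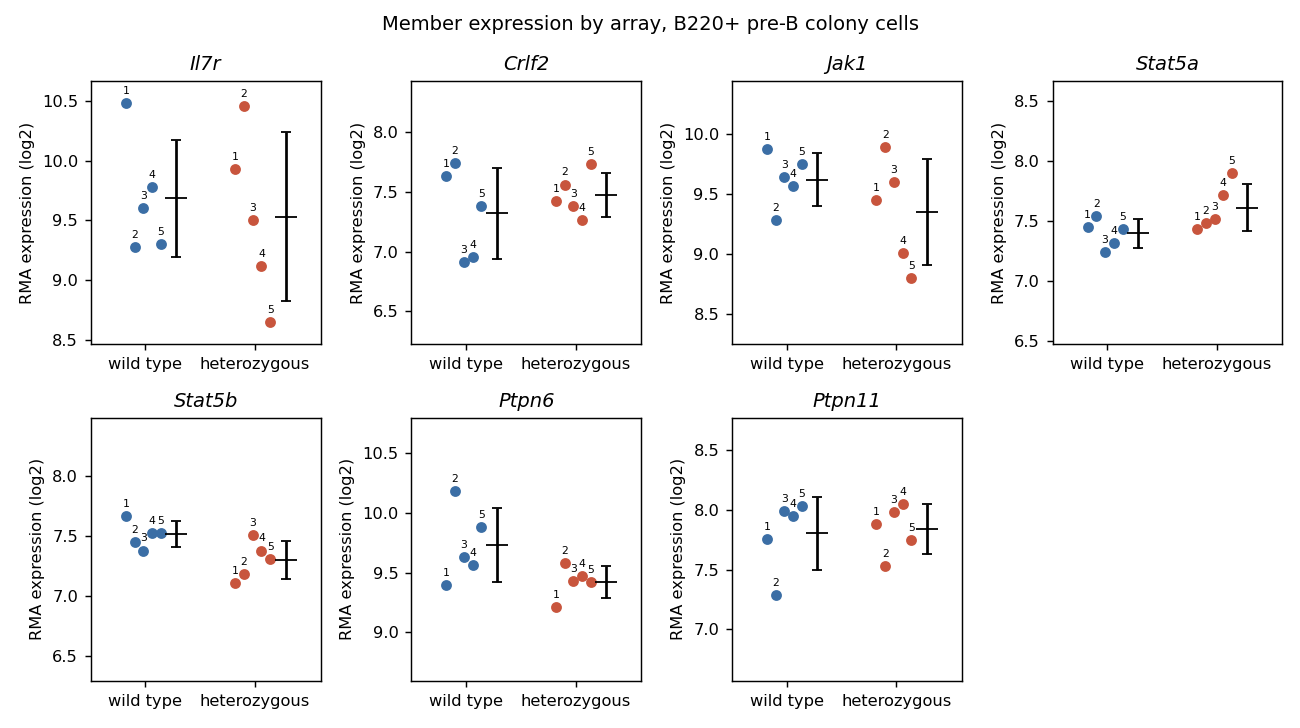
RMA expression (log2, y axis) of the 7 measured members in each array, with wild type in blue and heterozygous in red; numbers are the replicate numbers, horizontal bars the group means and whiskers the SD (n = 5). All panels span the same number of log2 units, and in every panel the 2 genotypes overlap.

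Il7r, the alpha chain, was the member that varied most between arrays. Its wild type values were 10.48, 9.28, 9.60, 9.78 and 9.30, and its heterozygous values were 9.93, 10.46, 9.50, 9.12 and 8.65. Wild type 1 and heterozygous 2 were nearly level at the top, heterozygous 5 was lowest, and the heterozygous arrays spanned 1.81 log2 units. The difference was -0.15 (SE 0.334, limma adjusted p = 0.848), equal to 89.8% of the wild type level with a 95% interval of 54.0 to 149.6%. A difference of the size seen for Hspa9 therefore lay inside the interval. The sign rested on single arrays: without wild type 1 the difference was 0.043 and without heterozygous 5 it was 0.066. Within genotypes, the pooled SD of Il7r was larger than that of 94.2% of the genes tested.

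The start region of Il7r is printed because this gene carries both of the short motifs that were searched among the members. The sequences are RefSeq's for the mouse assembly GRCm38.p6, cover the 250 bases before the annotated start of transcription, and run 5′ to 3′ on the gene's own strand. Capitals mark matches to TTCNNNGAA, the core to which STAT proteins such as STAT5 bind, and to CAGGAAGT on either strand (read as ACTTCCTG on the other), an Ets-type core. Ptpn6, on chr6:124738710-124738959 (minus strand), is set beside Il7r, on chr15:9529877-9530126 (minus strand), as the other member with an Ets-type match.
Il7r: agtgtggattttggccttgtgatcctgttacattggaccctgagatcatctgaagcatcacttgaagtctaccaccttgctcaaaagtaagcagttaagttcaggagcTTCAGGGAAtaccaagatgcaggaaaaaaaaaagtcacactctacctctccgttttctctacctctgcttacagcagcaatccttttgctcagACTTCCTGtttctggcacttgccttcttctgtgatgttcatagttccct
Ptpn6: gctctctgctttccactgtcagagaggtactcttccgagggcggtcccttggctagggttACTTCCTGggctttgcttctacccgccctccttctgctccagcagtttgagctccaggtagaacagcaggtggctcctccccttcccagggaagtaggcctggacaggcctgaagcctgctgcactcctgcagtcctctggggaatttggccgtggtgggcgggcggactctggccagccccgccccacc
In Il7r the TTCNNNGAA match, TTCAGGGAA, began 142 bases before the start and the ACTTCCTG match began 49 bases before it, so the matches did not overlap. The Ptpn6 match began 190 bases before its start. TTCNNNGAA, which reads the same on both strands at its fixed letters, was in 7.02% of the 32851 RefSeq start windows of this length and in 1 of the 11 windows of the 9 listed genes. CAGGAAGT was in 2.69% of all windows and in 2 of those 11. A match is a description of letters and was not linked here to binding or to the values.

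Crlf2, the TSLP receptor chain, was dimmer and its wild type arrays split widely. They read 7.63, 7.74, 6.91, 6.95 and 7.38, and the heterozygous arrays 7.42, 7.56, 7.38, 7.26 and 7.73. All heterozygous values fell inside the wild type range. The difference was 0.15 (SE 0.175, limma adjusted p = 0.711), with an interval from -0.23 to 0.54. Its size rested on single arrays: it was 0.048 without wild type 3, 0.060 without wild type 4 and 0.086 without heterozygous 5, but 0.229 without wild type 1 and 0.255 without wild type 2. Wild type 3 and wild type 4, the arrays low in Crlf2, were with wild type 5 also the lowest in monocyte and macrophage markers, at list means of 5.69, 5.56 and 5.64. With genotype means taken off, Crlf2 and that marker list had a Pearson r of 0.644 over 10 arrays and 0.772 over the 8 arrays without wild type 1 and heterozygous 2. With that marker mean as a covariate the Crlf2 difference was 0.024 (unadjusted p = 0.878, limma adjusted p = 0.947). Other marker lists ran with Crlf2 too. Its r over 10 and 8 arrays was 0.640 and 0.656 for T cell and NK cell markers and 0.592 and 0.812 for megakaryocyte markers. Against the B lineage list it was -0.538 and -0.518. The part of any of these markers in the Crlf2 values was not tested.

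Jak1, the kinase bound to the alpha chain, had a lower mean in heterozygous cells that rested mainly on heterozygous 4 and 5. Wild type arrays read 9.88, 9.28, 9.64, 9.57 and 9.75, and heterozygous arrays 9.45, 9.89, 9.60, 9.01 and 8.80. Heterozygous 2 was level with the highest wild type array, and heterozygous 1 and 3 lay within the wild type range. The difference was -0.27 (SE 0.201, limma adjusted p = 0.579), with an interval from -0.72 to 0.17. It was -0.135 without heterozygous 5 and -0.408 without heterozygous 2.

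Il7r and Jak1 varied together from array to array. After removal of the genotype means, their Pearson r was 0.853 and Spearman's rho 0.830 over 10 arrays, the highest of the 21 pairs of members, and r was 0.745 without wild type 1 and heterozygous 2. Stat5a ran the other way, with r of -0.655 against Il7r and -0.744 against Jak1, and -0.929 and -0.851 over the 8 arrays. Il7r also followed marker lists of cell types, although differently by subset. Against the B lineage list its r was 0.202 over 10 arrays and 0.868 over 8, and against the monocyte and macrophage list 0.670 over 10 and -0.189 over 8. Other lists gave similar values over 10 arrays. The r over 10 and 8 arrays was 0.664 and -0.484 for megakaryocyte and 0.617 and -0.563 for neutrophil lineage markers. It was 0.641 and 0.210 for plasmacytoid dendritic cell markers. Il7r ran against the erythroid list, at -0.746 and -0.564. These coefficients describe arrays that share 1 normalization, and they carry no test. With the monocyte and macrophage mean as a covariate the Il7r difference was -0.424 (limma adjusted p = 0.445).

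**Figure D2:**
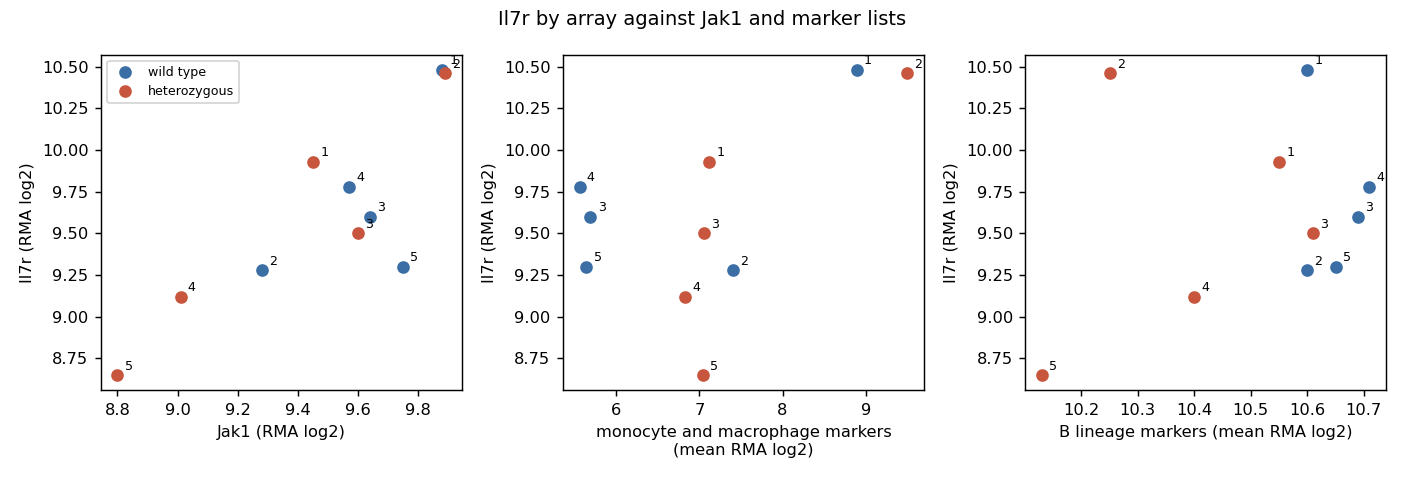
Il7r expression (RMA log2, y axis) in each array against Jak1, against the mean of the monocyte and macrophage markers and against the mean of the B lineage markers (x axes, RMA log2), with wild type in blue, heterozygous in red and replicate numbers beside the points. Wild type 1 and heterozygous 2 are highest in Il7r, Jak1 and macrophage markers, and heterozygous 5 is lowest in Il7r, Jak1 and B lineage markers.

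Stat5a and Stat5b, the paired transcription factors at the end of the pathway, had mean differences of like size and opposite sign, neither of which passed the test. Stat5a read 7.45, 7.54, 7.24, 7.32 and 7.43 in wild type arrays and 7.43, 7.48, 7.52, 7.72 and 7.90 in heterozygous arrays. Heterozygous 4 and 5 stood above every wild type array, and all 5 heterozygous values were above the wild type mean. Its difference was 0.21 (SE 0.113, limma adjusted p = 0.495), or 116% of wild type with an interval from 97.6 to 138%. The difference was 0.140 without heterozygous 5. Stat5a ran against the B lineage markers, with r of -0.660 over 10 arrays and -0.856 over 8, and heterozygous 4 and 5 had list means of 10.40 and 10.13 there, among the lowest; the part of those markers in the Stat5a values was not tested.

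Stat5b read 7.67, 7.45, 7.38, 7.53 and 7.53 in wild type arrays and 7.11, 7.18, 7.51, 7.38 and 7.31 in heterozygous arrays. Heterozygous 1, 2 and 5 were below every wild type array, heterozygous 4 was about level with wild type 3, and all 5 heterozygous values were below the wild type mean. The difference was -0.22 (SE 0.102, limma adjusted p = 0.462), or 86.1% of wild type with an interval from 73.7 to 100.5%. Its unadjusted p of 0.0563 was the smallest of the 7 members. Stat5b was also among the least variable, with a pooled SD above that of 13.1% of genes.

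The array-wise difference of Stat5a and Stat5b was looked at after these values had been seen and is given without a test. Stat5a minus Stat5b was -0.22, 0.09, -0.14, -0.21 and -0.10 in wild type arrays and 0.33, 0.29, 0.01, 0.34 and 0.59 in heterozygous arrays. Since 2 probe sets do not share a scale, the zero of this quantity has no meaning and only its shift between arrays can be read. The shift between the genotype means was 0.43, and 0.41 without wild type 1 and heterozygous 2. Heterozygous 3, at 0.01, was below wild type 2, at 0.09, and the genotypes were otherwise separate.

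**Figure D3:**
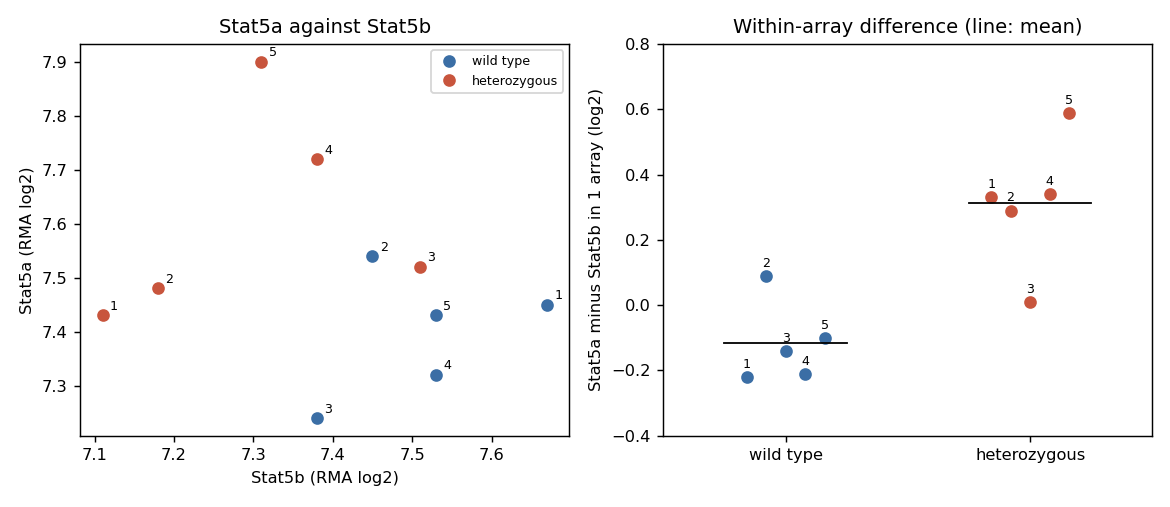
Left, Stat5a against Stat5b in each array (RMA log2); right, Stat5a minus Stat5b within each array (log2), with lines at the genotype means of -0.12 and 0.31. Wild type is blue, heterozygous red, and numbers are replicate numbers; heterozygous arrays lie toward higher Stat5a and lower Stat5b, with heterozygous 3 overlapping wild type 2 on the right.

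The 2 STAT5 genes are duplicates of each other that lie side by side on chromosome 11, with 0 genes between them in the RefSeq table. Their start regions are shown because the mean differences of these neighbours, though not past the test, had opposite signs. Stat5a is at chr11:100859406-100859655 (plus strand) and Stat5b at chr11:100850582-100850831 (minus strand), each being the first of 2 listed start windows.
Stat5a: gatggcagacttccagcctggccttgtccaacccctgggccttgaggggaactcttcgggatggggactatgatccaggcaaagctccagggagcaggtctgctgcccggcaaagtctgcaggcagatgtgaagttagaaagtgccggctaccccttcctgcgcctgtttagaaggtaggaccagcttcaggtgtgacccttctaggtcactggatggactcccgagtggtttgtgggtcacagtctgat
Stat5b: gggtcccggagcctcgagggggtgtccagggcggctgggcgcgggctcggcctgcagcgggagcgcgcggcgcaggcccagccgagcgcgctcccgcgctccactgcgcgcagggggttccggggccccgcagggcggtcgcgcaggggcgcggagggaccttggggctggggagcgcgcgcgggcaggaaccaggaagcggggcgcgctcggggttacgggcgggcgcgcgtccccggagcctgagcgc
Neither window holds a match to the motifs above, so all letters are in lower case. The Stat5b window is 82.0% G and C and the Stat5a window 57.6%. In the second listed windows, not printed, the order is reversed, with 46.4% for Stat5b and 68.0% for Stat5a. Whether the probes of either gene also bind RNA of its duplicate is not known here.

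Ptpn6, which encodes SHP-1, had the largest difference of the members. The wild type arrays read 9.40, 10.18, 9.63, 9.56 and 9.88, and the heterozygous arrays 9.21, 9.58, 9.43, 9.47 and 9.42. Wild type 1 was low among its group and lay below 4 of the heterozygous arrays, while every heterozygous array was below the wild type mean. The difference was -0.31 (SE 0.146, limma adjusted p = 0.465), or 80.7% of wild type with an interval from 64.6 to 100.9%. It was -0.393 without wild type 1 and -0.197 without wild type 2, the array with the highest value. With wild type 1 and heterozygous 2 both left out it was -0.433, with an unadjusted p of 0.0148 and an adjusted p of 0.236. Over those 8 arrays, r of Ptpn6 was 0.881 with neutrophil lineage markers and 0.704 with monocyte and macrophage markers. Over all 10 arrays these were 0.0787 and 0.0308. Against the B lineage list r was -0.345 over 8 and -0.272 over 10. The part of such markers in the Ptpn6 values was not tested. The heterozygous arrays were tight, with an SD of 0.136 against 0.307 in wild type.

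Ptpn11, which encodes SHP-2, was close to level between genotypes. Wild type arrays read 7.76, 7.29, 7.99, 7.95 and 8.03, and heterozygous arrays 7.88, 7.53, 7.98, 8.05 and 7.75. The array numbered 2 was lowest in each genotype. The difference was 0.04 (SE 0.157, limma adjusted p = 0.932), with an interval from 80.6 to 130.3% of wild type, and its sign turned to -0.093 without wild type 2 and -0.019 without heterozygous 4. Ptpn11 ran against the monocyte and macrophage markers, with r of -0.682 over 10 arrays and -0.931 over 8. It also ran against the plasmacytoid dendritic cell list (-0.727 and -0.684) and the T cell and NK cell list (-0.603 and -0.726). With the B lineage list its r was 0.491 and 0.390.

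**Figure D4:**
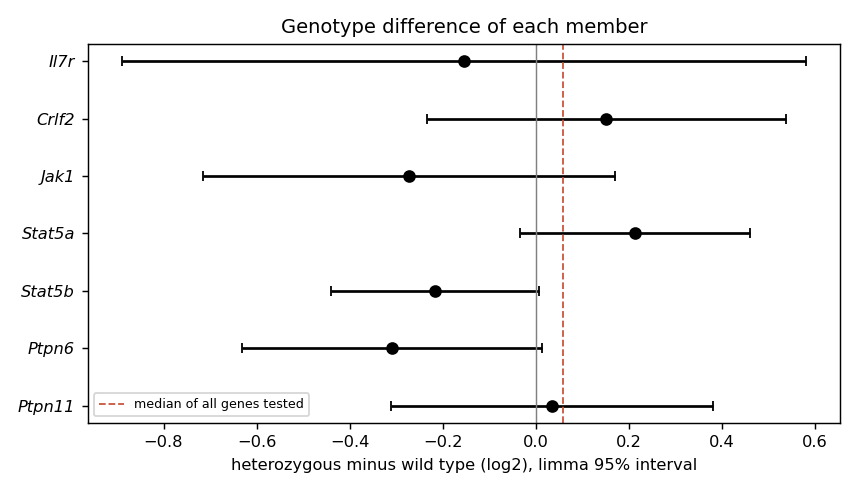
Heterozygous minus wild type difference (log2, x axis) of each measured member with limma's 95% interval, n = 5 arrays per genotype; the dashed line is the median of all genes tested, 0.06. Every interval includes 0, and those of Stat5b and Ptpn6 end closest to it, at 0.0069 and 0.013.

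The genes whose array pattern was most like each member were found by Pearson r over 10 arrays after removal of the genotype means. They describe the highest values among the genes tested, with predicted genes, olfactory and vomeronasal receptors and receptor segments left out. For Il7r they were Vps37a (r = 0.988) and Osbpl8 (0.976), for Jak1 Dync1i2 (0.975) and Copb1 (0.962), and for Crlf2 Fbxo6 (0.963) and Ino80b (0.960). Stat5a was most like Gtf2h4 (0.989) and Ube2e3 (0.971), and Ptpn11 most like Dync1h1 (0.976) and Zfp568 (0.971). Ptpn6 was most like H2-Ab1, a class II antigen presentation gene, at 0.944 and Cd2, an adhesion receptor of lymphocytes, at 0.939. Stat5b had the least close partners, Znrf1 at 0.936 and Gfra4 at 0.888. No member was among the nearest genes of another.

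Among the other genes of the pathway none passed the limma test over all genes, and 0 was also the count for each list named below. The gamma chain family list, with 10 of 14 genes tested, had a median difference of 0.05, with 1 gene higher and 1 lower at an unadjusted p under 0.05, where 6.79% of all genes were higher and 4.25% lower. Il2ra, the alpha chain of the IL-2 receptor and a known STAT5 target, read 7.50, 8.23, 8.50, 8.40 and 8.60 in wild type and 7.89, 6.74, 7.70, 7.72 and 7.12 in heterozygous arrays. Apart from wild type 1, every wild type array was above every heterozygous one. The difference was -0.81 (SE 0.259, limma adjusted p = 0.349), and -0.998 without wild type 1. Il2rb, the IL-2 and IL-15 receptor beta chain of T and NK cells, was dim, at means of 4.54 and 4.93 against a filter limit of 4.52, and was higher in every heterozygous array (0.39, SE 0.125, limma adjusted p = 0.349). The mean of T cell and NK cell markers was also higher in every heterozygous array, at 4.80 to 5.04 against 4.51 to 4.76. It covers the 12 of 13 genes on the array, Il2rb included, of which only 6 passed the filter on dim rows. Of those 6, 5 had a higher heterozygous mean and 1 a lower one. The part of these markers in the Il2rb value was not tested. The third gene by p, Il21r, the IL-21 receptor, was at -0.38 (SE 0.184, limma adjusted p = 0.469).

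The other JAK and STAT genes gave 0 of 6 tested at an unadjusted p under 0.05, against 11.0% of all genes, with a median difference of -0.06. Jak2, a kinase used by single-chain cytokine receptors and by the TSLP receptor, was at -0.32 (SE 0.236), and at -0.11 without heterozygous 5, which had the lowest value, 5.77. Stat3 was at -0.07 (SE 0.119) and Tyk2, the fourth JAK family kinase, at 0.09 (SE 0.163). The Tyk2 sign turned in 3 of 22 alternative settings and the Stat3 and Jak2 signs in 1 each.

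In the adaptor, PI3K and MAPK arm 18 of 22 genes were tested, with a median difference of 0.05, and 2 were higher and 0 lower at an unadjusted p under 0.05, beside 6.79% and 4.25% of all genes. Mtor, the growth kinase downstream of PI3K and AKT, read 9.11, 8.98, 8.57, 8.27 and 8.23 in wild type and 9.17, 9.06, 9.85, 9.57 and 9.40 in heterozygous arrays. Only heterozygous 2 lay below a wild type array, by a small margin. The difference was 0.78 (SE 0.208, limma adjusted p = 0.345). With array weights, which give less weight to arrays that deviate, it was 1.06 with an adjusted p of 0.0312. Array weights put 137 genes past the threshold, and they were the only 1 of the 22 alternatives in which Mtor passed. Gab2, a docking adaptor, was at 0.43 (SE 0.192, limma adjusted p = 0.449), and Pik3ca, the PI3K catalytic subunit alpha, at -0.48 (SE 0.216, limma adjusted p = 0.454), with a sign that turned in 1 of 22 alternative settings.

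Inhibitors of cytokine signalling had 14 of 14 genes tested and a median difference of -0.19, with 1 higher and 2 lower at an unadjusted p under 0.05, beside the same 6.79% and 4.25%. Ptpn2, the phosphatase TC-PTP that acts on JAK1, JAK3 and STAT5, read 7.40, 7.70, 7.95, 8.15 and 7.71 in wild type and 7.48, 7.40, 7.40, 7.15 and 6.88 in heterozygous arrays. The arrays overlapped only through wild type 1. Its difference was -0.52 (SE 0.160, limma adjusted p = 0.349). Cblb, a ubiquitin ligase that dampens lymphocyte signalling, was at -0.41 (SE 0.124, limma adjusted p = 0.349).

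Cish, a feedback inhibitor induced by STAT5, differed the other way. It read 7.27, 7.90, 8.06, 7.78 and 7.73 in wild type and 8.22, 7.52, 8.30, 8.96 and 8.94 in heterozygous arrays. The heterozygous arrays were above every wild type array except for heterozygous 2. The difference was 0.64 (SE 0.264, limma adjusted p = 0.431), and 0.86 without heterozygous 2.

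Of the genes known to be induced by STAT5, 14 of 14 were tested, and 8 had higher and 6 lower means in heterozygous cells, where 61.3% of all genes had higher means. The median difference was 0.13, and at an unadjusted p under 0.05 there were 2 higher and 1 lower, beside 6.79% and 4.25% of all genes. The higher ones were Cish and the cyclin gene Ccnd3, at 0.42 (SE 0.187, limma adjusted p = 0.449) with a sign that turned in 1 alternative, and the lower one was Il2ra. The list shares 5 genes with those above.

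**Figure D5:**
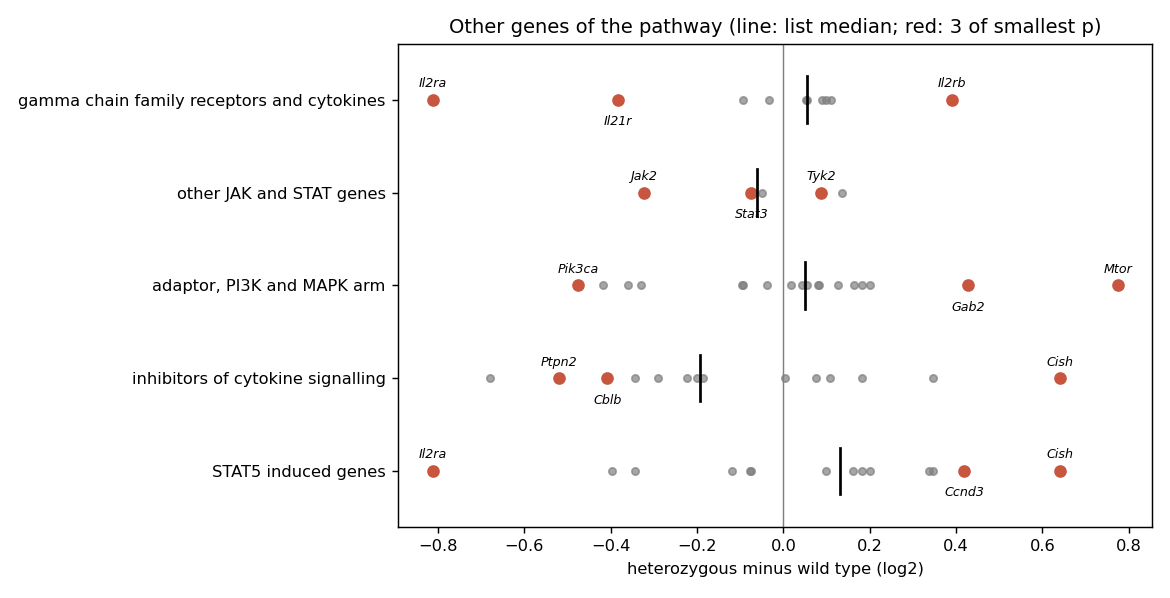
Heterozygous minus wild type difference (log2, x axis) of every tested gene of the 5 lists of other pathway genes (rows); black lines are list medians and red points with names are the 3 genes of smallest p in each list. Medians lie between -0.19 and 0.13, and none of the points passed the limma test over all genes.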

How the data were processed

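Per the labels, the authors amplified cDNA with a NuGEN kit, hybridised each sample to a Mouse Gene 1.0 ST array and deposited gene-level RMA values on the log2 scale made with Affymetrix Expression Console. Software versions, genome build and annotation are not given in the sources used here. Since RMA brings arrays to a shared distribution, a common shift of most genes is largely removed. The table holds 35556 probe sets on 10 arrays with medians from 5.38 to 5.49. Precision is limited by the number of arrays.

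The platform annotation gave 1 symbol to 21789 probe sets, several to 1621 and none to 12146. Of the 19938 symbols, 19856 matched the RefSeq table (GRCm38.p6) by Entrez identifier. Per symbol the probe set of highest mean was kept, and symbols were tested where their mean exceeded the 25th percentile (4.52). The genotype comparison used lmFit and eBayes of limma 3.58.1 (R 4.3.3), with Benjamini-Hochberg adjustment over all 14953 genes and a threshold of 0.05. Hspa9 was also compared by an exact permutation test over 252 splits, whose smallest p is 0.0079. The fit was tested on simulated data. The members and gene lists were chosen with earlier results of these data known. Named genes were the measured members, Hspa9, the 3 genes of smallest p in each pathway list, and the 2 genes most correlated with each member (predicted genes, olfactory and vomeronasal receptors and receptor segments not named).

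Alternatives were array weights, a trended and robust prior, 2 other scalings, 2 other filters on dim rows, separate rows for all probe sets, a block for the replicate number, marker or Xist levels as covariates, and each array left out. Leaving out wild type 1 with heterozygous 2 was added after seeing the data.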

Additional observations from a re-analysis of the deposited data

Results flagged for a closer look

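Gab2 had 1 wild type array far from the others of its group: wild type 1 read 8.16, while the nearest of the other 4 wild type arrays read 7.20. Without wild type 1 the Gab2 difference was 0.62 in place of 0.43. That gap was 0.937 of the range of its group, above the limit of 0.71 used for flagging. About 1 in 20 groups of this size passes that limit by chance. The measured members, Hspa9 and the other genes named from the pathway lists showed no such gap. The genes most correlated with each member were not searched for one.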

How the results depend on the processing

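No member passed the limma threshold in any of the 22 alternatives, and Jak1, Stat5a, Stat5b and Ptpn6 kept their direction in all 22. With the T cell and NK cell mean as covariate, a measure whose genotypes do not overlap, Il7r was at 0.275 and Crlf2 at -0.321, Stat5a (0.008) and Jak1 (-0.017) were close to 0, and Hspa9 was at -0.285 (adjusted p = 1). In that same fit Ptpn6 (-0.514), Stat5b (-0.297) and Ptpn11 (0.421) were further from 0 than without a covariate. Without 1 array, Il7r ran from -0.387 to 0.066 and was above 0 without wild type 1 (0.043) or heterozygous 5 (0.066), and Ptpn11 ran from -0.093 to 0.113 and was below 0 without wild type 2 (-0.093) or heterozygous 4 (-0.019). The number of members at an unadjusted p under 0.05, 0 with all arrays, was 1 with quantile normalization, array weights, the replicate block or both wild type 1 and heterozygous 2 left out, and 0 to 2 without 1 array. Ptpn6 passed that level in 6 alternatives, Stat5b in 2 and Jak1 in 1. The count of genes past the adjusted threshold was 137 with array weights, 26 without wild type 1 and heterozygous 2, and 0 to 22 without 1 array (22 without wild type 1, 3 without heterozygous 2). Hspa9 was at -0.79 (adjusted p = 0.0381) with array weights. Arrays of the same number did not deviate together in every pair, with correlations of -0.528, 0.212, 0.534, 0.043 and 0.309, so the numbers were not taken as pairs; with the replicate block the count of genes past the threshold was 0 and Ptpn6 was at -0.309 (adjusted p = 0.555). The causes of these changes were not tested.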
